A study of Mus musculus with 16 samples.

Results

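The actin genes were read on 11 probes of a bead array, in hamstring muscle of female mice after spinal cord injury (SCI), cardiotoxin (CDTX) or both. The members were chosen by symbol, as every probe that the deposited table lists under Acta1, Acta2, Actb, Actg1 or Actg2. The set itself was chosen on these data, because the Actb probes disagree between groups, so all Actb values are given as a description with no test. Probes were found for 4 of the 5 listed genes, out of 18097 symbols in the table: 1 probe for Acta1, 4 for Acta2, 5 for Actb and 1 for Actg2. Actg1, the gene of the other cytoplasmic actin, was not analysed here. All 11 probes passed the filter on dim probes, a detection p under 0.05 on at least 3 of the 15 arrays used in the tests, along with 14763 of all 25697 probes.

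The 4 groups of 4 arrays were SCI+CDTX (spinal cord injury at the lower thoracic spine, with CDTX injected into the muscle), SCI+Saline, Sham+CDTX and Sham+Saline. CDTX, a cobra venom protein, breaks down fibres and spares the precursor cells that rebuild them. Muscle was taken 2 days after surgery, and SCI+CDTX is, per the series' design text, the only condition in which bone later forms in the muscle. The labels give no strain or age, and state that SCI+CDTX replicate 2 was left out of the authors' final analysis, so it is printed here and marked but entered no main test. It stands far below the rest of its group on 2 overlapping Actb probes, which are nearly the same sequence. All SCI arrays carry 1 chip number and all sham arrays another, so surgery and chip cannot be told apart, while both CDTX comparisons lie within a chip. Nothing in the labels says that the arrays of a group came from separate animals, and p-values measure the spread between these arrays only.

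Actins are the proteins of the thin filament in muscle and of the cytoskeleton in every cell. Acta1 encodes the skeletal muscle form, Acta2 and Actg2 the smooth muscle forms of vessel walls and hollow organs, and Actb the beta form of the cytoplasm, which is widely used as a reference gene. In cells other than muscle fibres, monomers are added and removed at the filament ends with the help of profilin, cofilin, capping proteins and the Arp2/3 complex. In whole muscle, fewer cells of a type and less RNA per cell cannot be told apart.

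The Actb probes fall at 4 places of the transcript, and their sequences are shown because the group differences depended on the place. Numbers after "start" are the first base of the probe on its transcript record, as the array annotation gives it. All 5 are annotated to cytoband 5qG2, and the build behind the annotation is not given in the sources used here. The first line is the opening of the probe at start 14, next to the 5′ end. The second is bases 7 to 36 of the probe at start 1173, with the TAG stop codon of the reading frame in capitals, at bases 1205 to 1207 of the transcript. The third and the fourth are the opening 30 bases of the overlapping probes at starts 1408 and 1412 in the 3′ untranslated region, where capitals mark bases that lie in both. The last is the opening of the probe at start 1610, further along the same region.
ILMN_2617433: tccacccgcgagcacagcttctttgcagct
ILMN_2698799: cctccatcgtgcaccgcaagtgcttcTAGg
ILMN_2588055: cGGTGAAGGCGACAGCAGTTGGTTGGAGCA
ILMN_2846865: GGTGAAGGCGACAGCAGTTGGTTGGAGCAA
ILMN_1377923: tcgcgtccatgccctgagtccaccccgggg
The overlapping pair shared 49 of their 50 bases, 1 base apart, although their annotated starts differ by more because they refer to different versions of the record. Among all 25697 probes, neither shared a run of 20 bases with any probe other than its partner.

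Levels are log2 normalized intensities with an offset of 16, on which a probe without signal sits a little above 4. The probe at start 1408 (ILMN_2588055) was not detected on any of the 4 Sham+CDTX arrays, with levels of 4.37, 4.36, 4.39 and 4.44. The Sham+Saline arrays gave 10.15, 10.12, 9.44 and 9.33. The SCI+Saline arrays gave 9.55, 10.03, 8.85 and 8.6, and SCI+CDTX replicates 1, 3 and 4 gave 8.17, 7.63 and 7.89. SCI+CDTX replicate 2 stood at 4.47, beside the Sham+CDTX arrays and below every array of its own group. It was not detected there either, with a detection p of 0.06015 from the array software. No SCI+CDTX or Sham+CDTX array reached the range of a saline group. In intensity before normalization, Sham+CDTX arrays lay between 99.3 and 104.4 units and Sham+Saline arrays between 583.6 and 809.3. Each of these values was averaged over 97 to 128 beads, more than for any other member probe. The Sham+CDTX level is only a bound. On this scale the probe was at least 37.9-fold lower in Sham+CDTX than in Sham+Saline, and at least 10.4-fold lower than in the 3 SCI+CDTX arrays. Both figures hold for this normalization and offset only. Under median scaling the fitted log2 difference from Sham+Saline was -5.04, against -5.37.

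Its partner ILMN_2846865, made on different beads, gave nearly the same values. Sham+CDTX arrays stood at 4.35, 4.39, 4.35 and 4.52, and only replicate 4 was detected. SCI+CDTX replicate 2 stood at 4.52, level with that replicate, and the other SCI+CDTX arrays at 8.21, 7.66 and 8.18. The saline groups lay between 8.65 and 10.26. In the authors' deposited table the group means of the 2 probes were 258.8 and 281.6 in SCI+CDTX, 634.2 and 682.7 in SCI+Saline, 3.5 and 3.7 in Sham+CDTX, and 808.4 and 873.2 in Sham+Saline. Over the 16 arrays the centred levels of the 2 probes differed by 0.08 log2 units (root mean square).

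The CDTX difference in sham mice (Sham+CDTX minus Sham+Saline) was -5.37 ± 0.26 (standard error) for ILMN_2588055 and -5.47 ± 0.25 for ILMN_2846865 on the log2 scale. As Sham+CDTX is at background, these fitted values, like any other set against that group, depend on the offset and are no measure of the full size. In SCI mice (SCI+CDTX minus SCI+Saline) it was -1.36 ± 0.28 and -1.34 ± 0.27. With SCI+CDTX replicate 2 kept in, the SCI values moved to -2.22 and -2.21. The SCI difference in CDTX muscle was 3.51 ± 0.28 and 3.62 ± 0.27, and 2.65 and 2.74 with that array. In saline muscle the SCI difference was -0.5 ± 0.26 and -0.52 ± 0.25, and the groups overlapped.

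The probe at the end of the coding region, ILMN_2698799, showed none of this. Its level lay between 13.6 and 13.89 in SCI+CDTX, between 13.73 and 13.96 in SCI+Saline, between 13.57 and 13.67 in Sham+CDTX and between 13.64 and 13.9 in Sham+Saline. All pairs of compared groups overlapped, and the CDTX differences were -0.15 ± 0.12 in sham mice and -0.09 ± 0.13 in SCI mice. This probe read at 50.7 to 74.7% of the brightest probe of its array, and whether such bright probes are compressed was not tested. It also stood close to the Acta1 probe, whose level minus that of this probe lay between -0.07 and 0.32 on all arrays. The centred levels of these probes differed by 0.1 log2 units (root mean square), though both varied little (SD 0.1 for Acta1 and 0.12 here). Whether this probe also reads RNA of other actin genes was not tested. In the authors' deposited table of the final analysis, which scales arrays to a common average, its mean was 12063.3 in Sham+CDTX and 18311.6 in Sham+Saline, a log2 difference of -0.6.

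The probe nearest the 5′ end, ILMN_2617433, went the other way. Its level was 10.19, 9.61, 10.27 and 10.3 on the Sham+CDTX arrays and 7.45, 7.91, 7.78 and 7.91 on the Sham+Saline arrays. On the SCI+CDTX arrays it was 9.37, 9.46 (replicate 2), 9.99 and 9.35, and on the SCI+Saline arrays 7.81, 9.13, 7.51 and 8.53. Every CDTX array was above every saline array of the same surgery, and SCI+CDTX replicate 2 lay inside the range of its own group. The CDTX difference was 2.33 ± 0.27 in sham mice, 5.02-fold, and 1.32 ± 0.29 in SCI mice, 2.5-fold. The SCI differences were -0.52 ± 0.29 in CDTX muscle and 0.48 ± 0.27 in saline muscle, with overlapping groups in both.

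The probe furthest along the 3′ region, ILMN_1377923, stood higher with CDTX in SCI mice, on the 3 SCI+CDTX arrays used in the tests. SCI+CDTX replicates 1, 3 and 4 stood at 12.77, 12.71 and 13.02, above SCI+Saline at 11.55, 12.1, 11.41 and 12.16. SCI+CDTX replicate 2 stood at 12.13, inside the SCI+Saline range. Sham+CDTX arrays gave 12.28, 11.93, 12.41 and 12.54, and Sham+Saline arrays 12.35, 12.35, 11.91 and 12.25, which overlapped. The CDTX difference was 1.03 ± 0.2 in SCI mice, 0.85 with all 16 arrays, and 0.07 ± 0.18 in sham mice.

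**Figure D1:**
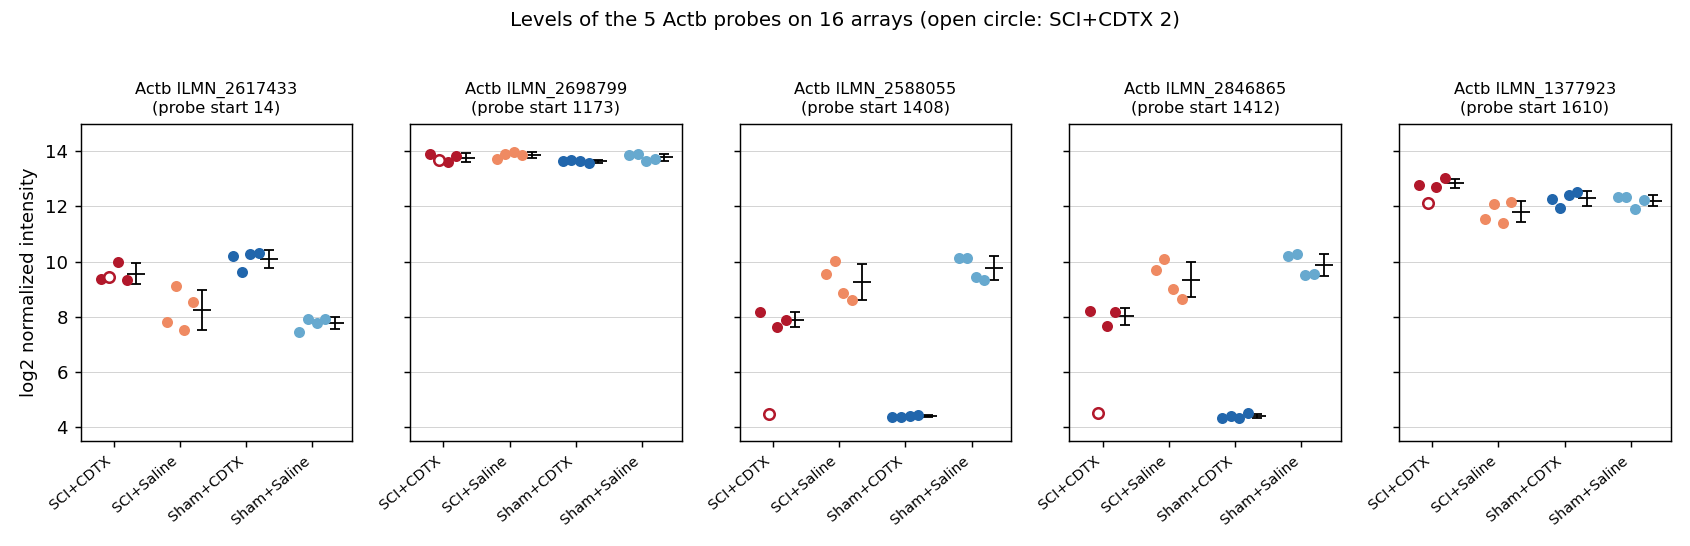
Log2 normalized intensity (y axis) of each Actb probe on 16 arrays, by group (x axis), in order of probe start; points are arrays, the open circle is SCI+CDTX replicate 2, and black bars are the mean and SD of the arrays used in the tests. The overlapping probes stood between 4.35 and 4.52 on the Sham+CDTX arrays and at 4.47 and 4.52 on SCI+CDTX replicate 2, while the probe at start 1173 stayed between 13.57 and 13.96 on all arrays.

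The differences did not follow the order along the transcript. The pair with the lowest levels in Sham+CDTX lies between the coding-end probe and the last probe, whose CDTX differences in sham mice were -0.15 and 0.07. Measured as the highest minus the lowest log2 difference among a gene's probes, the Actb spread was 7.8 for CDTX in sham mice, against a median of 0.43 and a 95th percentile of 1.4 over the 2740 genes with several kept probes. It ranked 1 of 2740 there, ahead of Gpnmb (4.98), a glycoprotein of phagocytic macrophages, Tpm3 (4), a tropomyosin, Hmga1 (3.31) and Mcm6 (3.26). The Actb spread was 2.68 for CDTX in SCI mice (rank 5), 4.14 for SCI in CDTX muscle (rank 1) and 1 for SCI in saline muscle (rank 135). For the interaction, the CDTX difference in SCI mice minus that in sham mice, it was 5.14 (rank 1). The spreads that involve Sham+CDTX depend on the offset as well, and with an offset of 50 that for CDTX in sham mice was 6.3. As Actb was chosen for this disagreement, the ranks describe it and support nothing further. Acta2, with 4 probes, spread over 0.41 for CDTX in sham mice and 0.53 for CDTX in SCI mice.

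**Figure D2:**
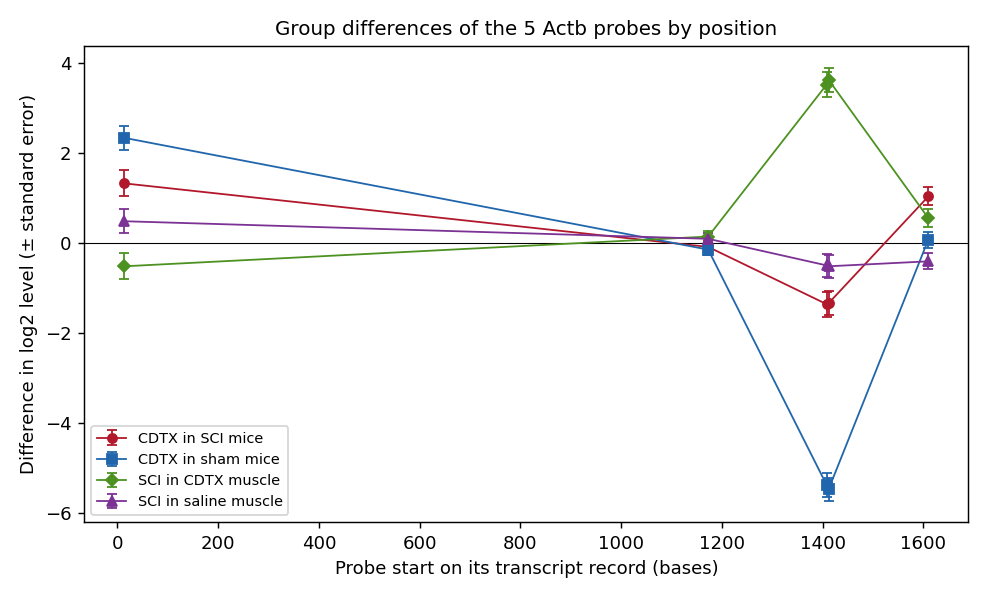
Difference in log2 level with its standard error (y axis) of the 5 Actb probes against probe start in bases (x axis), for the 4 pairwise comparisons; lines join probes of a comparison. In sham mice the CDTX difference was 2.33 at start 14, -0.15 at 1173, -5.37 and -5.47 at 1408 and 1412, and 0.07 at 1610.

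Disagreement between probes was not confined to Actb, and it followed the same arrays. A probe-difference score was computed per array as the main component of the log2 difference between the 2 brightest probes of each of 2738 genes, with the actins left out. It carried 33.5% of the variance of those differences. Sham+CDTX arrays scored 18.2 to 20.4 and SCI+CDTX replicate 2 scored 14.8. The other 11 arrays scored between -14 and -3.75, so the 5 arrays with positive scores were those on which the overlapping Actb probes stood below 5. With the score as a covariate over 16 arrays, the CDTX difference of the pair in sham mice was -1.42 ± 0.91 and -1.36 ± 0.89, and the SCI difference in CDTX muscle 0.14 ± 0.64 and 0.13 ± 0.63. Outside Sham+CDTX only SCI+CDTX replicate 2 has a positive score, so these adjusted values rest largely on that array. Whether what the score measures has a part in the Actb values was not tested. A different check compared the upstream with the downstream probe of 1338 genes with 2 probes on 1 transcript record at least 300 bases apart. The log2 difference was centred per gene over the arrays, so it shows change between arrays only. Its median over genes lay between -0.082 and 0.037 on Sham+CDTX arrays and between -0.096 and 0.175 on the others used in the tests.

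**Figure D3:**
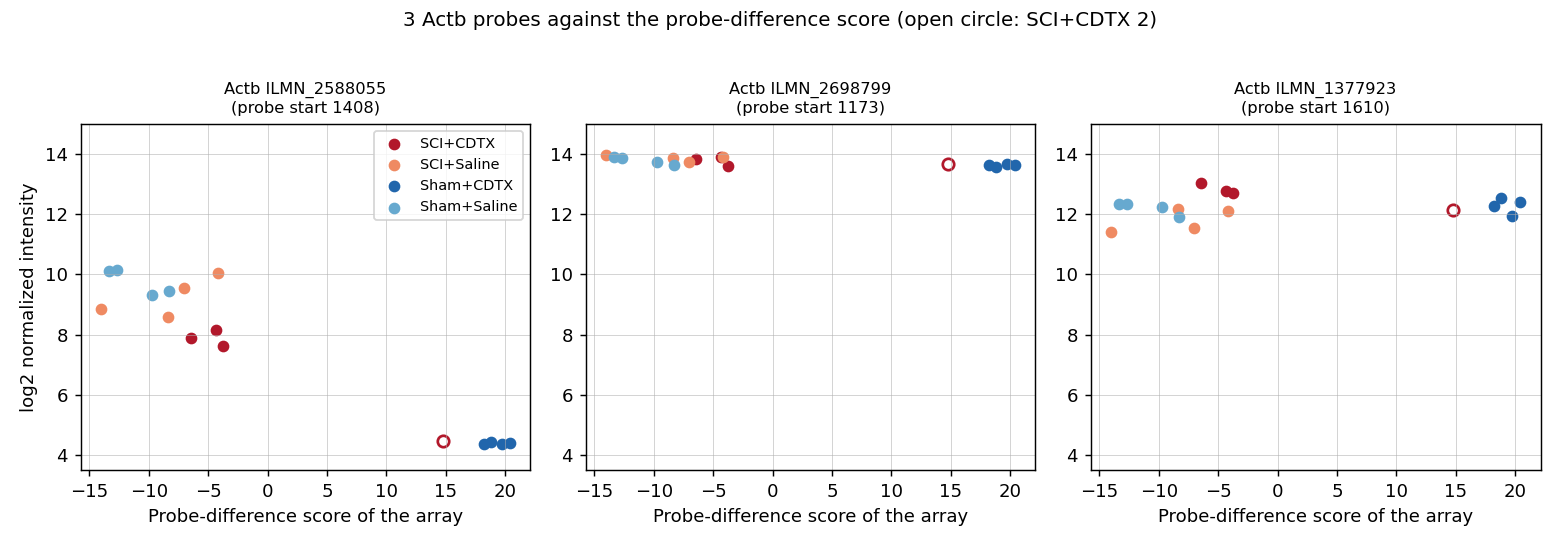
Log2 normalized intensity (y axis) of the Actb probes at starts 1408, 1173 and 1610 against the probe-difference score of the array (x axis, no unit); points are the 16 arrays coloured by group, and the open circle is SCI+CDTX replicate 2. The 5 arrays at 14.8 and above stand between 4.36 and 4.47 in the left panel. At start 1173 they stand between 13.57 and 13.67, in the lower part of a range that reaches 13.96.

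Genes were ranked by how closely their centred levels followed each Actb probe over the 16 arrays, as a description (root mean square difference in log2 units). The overlapping pair was followed most closely by Tpra40 (0.91 and 0.93), Decr1 (1.29 and 1.33), a mitochondrial enzyme of fatty acid oxidation, and Scnm1 (1.38 and 1.41), while the pair itself varied with an SD of 2.28 and 2.32. The 5′ probe was followed by Skap2 (0.29), Fabp5 (0.3), a fatty acid binding protein, and Ctsc (0.3), a lysosomal protease, against an SD of 1.02. For the last probe the 3 nearest were Pdia5 (0.21), Plscr1 (0.22) and Pif1 (0.22). The coding-end probe varied so little (SD 0.12) that its nearest genes, Nfatc2 (0.08), Il15ra (0.1) and Gm12185 (0.1), were nearly as far from it as a flat line.

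The members other than Actb were not the reason for the choice, and their 6 probes were tested with limma across all 14763 kept probes, with Benjamini-Hochberg adjustment. For CDTX in SCI mice 2 of the 6 were called, both higher, where 42.9% of all probes were called. For CDTX in sham mice 2 were called, both lower, against 48.9% of all probes. For SCI in CDTX muscle 0 were called by limma, against 29.8%, and 1 had an unadjusted p under 0.05. The p of the authors' deposited table gave 0 there too. For SCI in saline muscle 5 were called, all lower, against 29.5%. For the interaction 3 were called, all higher, against 23.6%. With probes of 1 gene counted separately and a pair of Acta2 probes nearly identical, these counts are not independent.

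Acta1, the skeletal muscle actin, did not pass the test in any comparison. Its probe (ILMN_2738825, chromosome 8, cytoband 8qE2) stood at 13.82, 13.75 (replicate 2), 13.92 and 13.85 on SCI+CDTX arrays and at 13.77, 13.99, 13.89 and 13.96 on SCI+Saline arrays. Sham+CDTX arrays gave 13.66, 13.92, 13.79 and 13.73, and Sham+Saline arrays 13.94, 14, 13.77 and 13.79. All groups overlapped. The CDTX difference was -0.1 ± 0.12 in sham mice (adjusted p = 0.505, limma) and -0.04 ± 0.13 in SCI mice (adjusted p = 0.831, limma). The probe read at 57.1 to 79.2% of the brightest probe on its array, and compression of bright probes was not tested. In the authors' deposited table its mean was 13444.6 in SCI+CDTX and 19715.7 in Sham+Saline, with a deposited p of 0.011, while the intensities before normalization overlapped at 13841.1 to 15730 and 13945.2 to 15653.2. Over the 16 arrays the nearest genes to this probe were Mylpf and Pvalb (0.09 each), a myosin light chain and the calcium buffer of fast fibres, and Actr3b (0.1). The probe varied so little (SD 0.1) that these genes were about as far from it as a flat line.

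Actc1, the cardiac actin that skeletal muscle makes while it forms, was not a member but is the nearest gene of the family, and its probes fell where the Acta1 probe showed no call. The mean level of ILMN_2767216 was highest in Sham+Saline, 12.41 ± 0.24 (SD, n = 4), and lowest in SCI+CDTX, 10.02 ± 0.5 (n = 3). Sham+CDTX and SCI+Saline lay between them, at 11.32 ± 0.39 and 11.17 ± 0.45. It fell with CDTX in SCI mice (-1.15 ± 0.26, limma adjusted p = 0.00148) and in sham mice (-1.1 ± 0.24, limma adjusted p = 0.000913). It also fell with SCI in saline muscle (-1.24 ± 0.24, limma adjusted p = 0.000706) and in CDTX muscle (-1.3 ± 0.26, limma adjusted p = 0.000932). A brighter probe, ILMN_2598916, fell in the same comparisons except for CDTX in sham mice (-0.46 ± 0.21, limma adjusted p = 0.0769). The difference between Acta1 and Actc1 was not tested.

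Acta2, the actin of vascular smooth muscle and of activated fibroblasts, was lower in SCI than in sham muscle after saline on all 4 of its probes, though only 1 of these calls held under median scaling (3 of the probes are annotated to chromosome 19, cytoband 19qC1, and ILMN_2710353 carries no position). Its brightest probe, ILMN_2693895 at start 1245, stood at 10.6, 10.37, 10.63 and 10.91 on SCI+Saline arrays and at 11.43, 11.52, 11.58 and 11.73 on Sham+Saline arrays. Sham+CDTX arrays gave 11.02, 10.7, 10.95 and 11.13, and SCI+CDTX arrays 11, 10.41 (replicate 2), 11.92 and 11.32. All 8 arrays of SCI+Saline and Sham+CDTX were below all Sham+Saline arrays. The SCI difference in saline muscle was -0.93 ± 0.18, 1.91-fold lower (limma adjusted p = 0.000523). Before normalization its mean intensity was 1870 in SCI+Saline and 2390 in Sham+Saline.

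The same probe moved with CDTX in opposite directions by surgery. It rose in SCI mice by 0.78 ± 0.19 (limma adjusted p = 0.00253) and was lower in sham mice, at -0.62 ± 0.18 (limma adjusted p = 0.0068). The interaction was 1.4 ± 0.26 (limma adjusted p = 0.000707). The rise in SCI mice rests on leaving out SCI+CDTX replicate 2, the lowest array of its group: with it the difference was 0.53 and was no longer called. With the probe-difference score as a covariate the difference in sham mice turned to 0.64 (limma adjusted p = 0.356) and the interaction dropped to 0.24 (limma adjusted p = 0.868).

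The other Acta2 probes gave smaller differences. ILMN_2923445, at start 1330, stood at 8.9 to 9.06 in Sham+Saline and at 8.03 to 8.36 in SCI+Saline, without overlap, and fell by 0.8 ± 0.15 with SCI (limma adjusted p = 0.000687). For CDTX in sham mice it was at -0.39 ± 0.15 (limma adjusted p = 0.0448), and its interaction was 0.68 ± 0.23 (limma adjusted p = 0.037). The former call was lost in 7 and the latter in 8 of 15 fits that left out 1 array, and the interaction was 0.2 under median scaling. In SCI mice its CDTX difference of 0.29 ± 0.17 was not called (limma adjusted p = 0.177). The remaining probes lie in the 5′ part of the transcript and are another overlapping pair, shown because they give 2 readings of nearly the same 50 bases. Capitals mark shared bases within the opening 30.
ILMN_2710353: tGGGGGATGAAGCCCAGAGCAAGAGAGGGA
ILMN_2710354: GGGGGATGAAGCCCAGAGCAAGAGAGGGAT
They shared 49 bases, as the Actb pair did. In saline muscle their SCI differences were -0.58 ± 0.2 (limma adjusted p = 0.0351) and -0.56 ± 0.19 (limma adjusted p = 0.0364), although their groups overlapped. Before normalization their mean intensities were no lower in SCI+Saline, at 234 against 230 and 289 against 281 in Sham+Saline. Leaving out 1 array ended these calls in 5 and 6 of 15 fits. Over the 16 arrays they differed by 0.15 log2 units (root mean square), and neither was called in another comparison of the main fit.

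The direction of Acta2 after CDTX in sham mice depended on the scaling. With median scaling in place of quantile normalization the median difference of all probes in that comparison was 0.32, against -0.04. The 3 dimmer probes then stood at 0.48, 0.51 and 0.26 in place of -0.29, -0.21 and -0.39, and ILMN_2693895 at -0.31. For SCI in saline muscle that median was 0.17, against -0.01. The pair then stood at -0.15 and -0.12, ILMN_2923445 at -0.37 and ILMN_2693895 at -0.47. Of the 6 probes only ILMN_2693895 was still called, in place of 5. For CDTX in SCI mice median scaling added calls, to 5 of the 6 probes in place of 2. The pair then stood at 0.61 and 0.49 in place of 0.33 and 0.26. ILMN_2923445 stood at 0.46 in place of 0.29, and ILMN_2693895 at 0.52 in place of 0.78. The median of all probes there was 0.06, against -0.05.

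Actg2, the smooth muscle actin of the gut and other hollow organs, was close to background. Its probe (ILMN_2839313, chromosome 6, cytoband 6qC3) was detected on 13 of 16 arrays, at intensities of 93.7 to 173.3. SCI+CDTX arrays stood at 4.92, 4.97 (replicate 2), 6.16 and 5.4, all above SCI+Saline at 4.57, 4.72, 4.69 and 4.75. Sham+CDTX arrays gave 5.26, 4.78, 4.83 and 5.22 and Sham+Saline arrays 5.53, 4.52, 5.98 and 6.13, which overlapped. It rose with CDTX in SCI mice by 0.81 ± 0.31 (limma adjusted p = 0.0395) and fell with SCI in saline muscle by 0.86 ± 0.28 (limma adjusted p = 0.0284), and the interaction was 1.33 ± 0.42 (limma adjusted p = 0.0264). Each of these calls was lost in 5 of 15 fits that left out 1 array. The call in SCI mice ended without SCI+CDTX replicate 3 or 4 or SCI+Saline replicate 1, 2 or 3, and without SCI+CDTX replicate 3, the highest, the difference was 0.48. The call in saline muscle ended without SCI+Saline replicate 1 or 2 or Sham+Saline replicate 1, 3 or 4, with differences of -0.66 to -0.87. With all 16 arrays the CDTX difference was 0.68 and was not called.

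**Figure D4:**
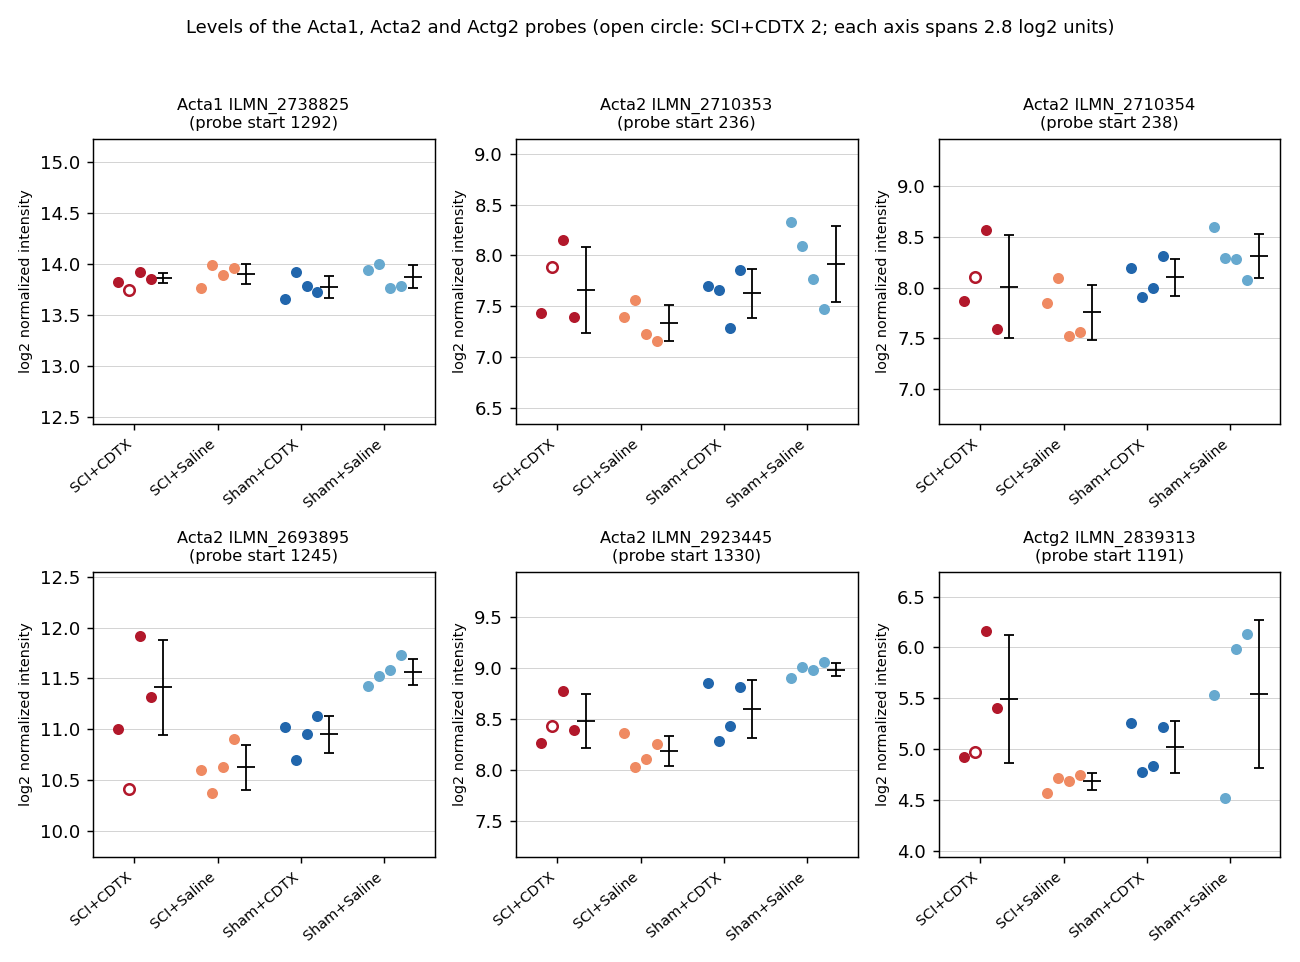
Log2 normalized intensity (y axis) of the Acta1, Acta2 and Actg2 probes by group (x axis), on axes of equal span; points are arrays, the open circle is SCI+CDTX replicate 2, and black bars are the mean and SD of the arrays used in the tests. Acta1 stood between 13.66 and 14 on all 16 arrays, and Acta2 ILMN_2693895 was below 11.43, the lowest Sham+Saline array, on every SCI+Saline and Sham+CDTX array.

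Over the 16 arrays Acta2 ILMN_2693895 was followed most closely by Ctc1 (0.19), Gnb4 (0.19), a G protein subunit, and Nos3 (0.2), the nitric oxide synthase of endothelium. Actg2 was followed by Gnb4, by Ednra, the endothelin receptor of vascular smooth muscle, and by Angpt2, an endothelial growth factor (0.34 each, against an SD of 0.53). The other Acta2 probes had different neighbours, Ppnr, Galnt11 and Adcy6 (0.2 each) for ILMN_2923445, Eps8l2 (0.23), Sfxn3 (0.23) and Dhdds (0.24) for ILMN_2710353, and Pxdn (0.21), Lurap1l (0.22) and Fam117b (0.22) for ILMN_2710354.

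Most genes of the proteins that build and remodel actin filaments rose with CDTX under both surgeries. Of 38 such genes with a kept probe (44 listed, 1 probe per gene), 31 rose and 1 fell with CDTX in SCI mice, with a median of 1.25, and 31 rose and 2 fell in sham mice, with a median of 1.48. Over all probes the medians were -0.05 and -0.04, with 20.4% and 23.1% of probes called higher. The largest rises in sham mice were Cotl1 (4.06 ± 0.31), a filament-binding protein of blood cells, Coro1a (3.36 ± 0.42), the coronin of leukocytes, and Lcp1 (3.32 ± 0.3), the leukocyte plastin. In SCI mice they were Coro1a (3.33 ± 0.46), Plek (3.02 ± 0.31), a platelet and leukocyte protein, and Cotl1 (2.97 ± 0.34). In SCI and sham mice cofilin Cfl1 rose by 1.14 and 1.35, profilin Pfn1 by 1.17 and 1.48, and the Arp2/3 subunit Arpc4 by 1.25 and 1.46. Twf2 fell in both (-0.5 and -0.93), and Gsn, gelsolin, fell in sham mice (-0.88 ± 0.24).

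With SCI in CDTX muscle 5 of these 38 rose and 6 fell, with a median of 0.02, a share close to the 29.8% of all probes called. Fscn1, the bundling protein fascin, fell by 2.32 ± 0.22 and Was by 1.73 ± 0.29, and Capg and Coro1b rose by 1.18 ± 0.24 and 1.09 ± 0.2. With SCI in saline muscle 5 rose and 3 fell, against 29.5% of all probes called, with a median of 0.04, and Fscn1 fell there as well, by 1.04 ± 0.2. Under median scaling that split was 12 higher and 1 lower, with a median of 0.41. With the probe-difference score as a covariate, 20 of the 38 rose and 2 fell with CDTX in sham mice. For SCI in CDTX muscle that fit called 1.88% of all probes.

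Genes of the muscle thin filament fell more often than they rose. Of 16 genes with a kept probe (23 listed), 8 fell and 2 rose with CDTX in SCI mice (median -0.55), and 6 fell and 2 rose in sham mice (median -0.23). Of all probes, 22.5% were called lower and 20.4% higher in SCI mice, and 25.8% and 23.1% in sham mice. The slow troponins led the falls: Tnnc1 was at -2.13 ± 0.3 and -1.68 ± 0.28, Tnnt1 at -1.46 ± 0.27 and -1.76 ± 0.25, and Tnni1 at -1.32 ± 0.31 and -1.61 ± 0.29, in SCI and sham mice. The 2 that rose in both were the tropomyosins Tpm3 (2.2 ± 0.24 and 2.5 ± 0.22) and Tpm1 (1.05 ± 0.18 and 1.3 ± 0.17), which are also made outside muscle. Tpm3 has 4 kept probes, and in sham mice its lowest stood at -1.5, so its direction depended on the probe as that of Actb did. With SCI, 7 of the 16 fell in CDTX muscle and 4 in saline muscle, where 14.9% and 14.6% of all probes were called lower, led by Tnnc1 (-1.13 ± 0.3) in the former and Tmod1 (-0.81 ± 0.18), tropomodulin, in the latter. Median scaling left the signs of these named genes as they were, but only 1 gene, rising, was then called in saline muscle. In CDTX muscle 2 of the 16 fell with all 16 arrays, and 3 with each chip normalized separately, which left 1 in saline muscle.

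Genes of smooth muscle contraction, the setting of Acta2 and Actg2, were called in both directions. Of 10 with a kept probe (13 listed), 3 rose and 1 fell with CDTX in SCI mice, 2 rose and 2 fell in sham mice (4 and 0 under median scaling), and 2 rose and 3 fell with SCI in CDTX muscle. In that order 42.9%, 48.9% and 29.8% of all probes were called. With SCI in saline muscle, where 14.6% of all probes were called lower, 3 of the 10 fell and 0 rose. The 3 were Synpo2 (-1.6 ± 0.2), the light chain kinase Mylk (-1.22 ± 0.2) and the smooth muscle myosin Myh11 (-0.94 ± 0.19). With CDTX in sham mice Myh11 was at -0.71 ± 0.19 and called lower, but at 0.11 under median scaling. Cnn1, the calponin of contractile smooth muscle, was detected on 3 of 16 arrays and Tagln on 11. Among 8 markers of smooth muscle and pericytes, 7 had a kept probe, and their mean level lay between 6.42 and 6.65 in Sham+Saline, 5.88 and 6.15 in SCI+Saline, 6.12 and 6.42 in Sham+CDTX, and 5.82 and 6.29 in SCI+CDTX. With SCI in saline muscle 3 of these 7 fell and 0 rose, and of 6 endothelial markers 5 fell and 0 rose, with a median of -0.68. Both counts stand beside the 14.6% of all probes called lower there, and are given for quantile normalization only. Under median scaling the median of all probes in that comparison was 0.17, against -0.01. Of the 10 contraction genes 3 then fell and 1 rose, with a median of -0.1 against -0.34. The part of these cells in the Acta2 values was not tested.

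Known targets of serum response factor, the transcription factor that reads the pool of free actin through its MRTF partners, gave calls in both directions. Of 14 with a kept probe (18 listed), 7 rose and 3 fell with CDTX in SCI mice, against 42.9% of all probes called, and 5 rose and 1 fell in sham mice, against 48.9%. In sham mice 9 rose and 0 fell under median scaling. The ankyrin repeat gene Ankrd1 rose with SCI in saline muscle by 5.87 ± 0.27 and with CDTX in sham mice by 3.31 ± 0.27, and fell with CDTX in SCI mice (-1.03 ± 0.29). Srf itself fell with SCI in saline muscle (-1.53 ± 0.22) and with CDTX in sham mice (-1.02 ± 0.22), a call that median scaling ended. Zyx, zyxin, rose with CDTX by 2.12 ± 0.2 in SCI and by 0.69 ± 0.19 in sham mice.

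Other genes often used as references changed as well. Of 16 with a kept probe (20 listed), 9 rose and 0 fell with CDTX in SCI mice, with a median of 0.73, and 10 rose and 1 fell in sham mice, with a median of 1.28. Of all probes, 20.4% were called higher and 22.5% lower in SCI mice, and 23.1% and 25.8% in sham mice. In sham mice Tuba1b rose by 2.53 ± 0.2, Hprt by 1.98 ± 0.16 and Gusb by 1.94 ± 0.21, and Tfrc fell by 0.56 ± 0.17. With SCI, Tfrc fell by 2.32 ± 0.17 in saline muscle and by 1.35 ± 0.19 in CDTX muscle.

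**Figure D5:**
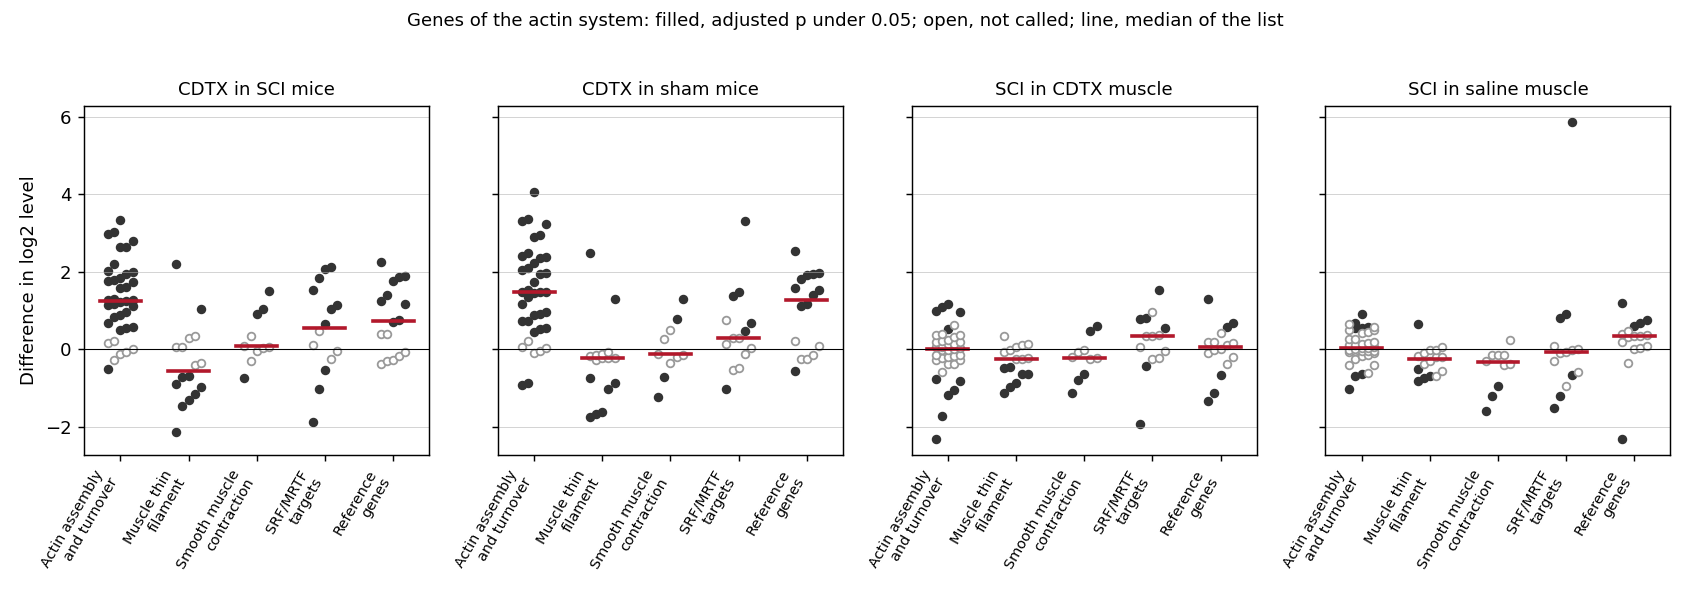
Difference in log2 level (y axis) of the genes of 5 lists (x axis), 1 point per gene, in the 4 pairwise comparisons; filled points have a limma adjusted p under 0.05, open points do not, and red lines are list medians. Genes of actin assembly and turnover have medians of 1.25 and 1.48 in the CDTX comparisons and of 0.02 and 0.04 in the SCI comparisons.

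Cell type markers moved with the same groups. The mean level of 6 macrophage and monocyte markers (8 listed) lay between 9.32 and 9.47 in Sham+CDTX and 8.89 and 9.96 in SCI+CDTX, above 6.16 to 6.97 in Sham+Saline and 6.42 to 7.9 in SCI+Saline. Ccr2 of that list was detected on 0 arrays. All 6 rose with CDTX under each surgery, with medians of 3.21 in sham and 2.7 in SCI mice, where 23.1% and 20.4% of all probes were called higher. All 10 skeletal fibre markers had a kept probe, with a mean level of 11.7 to 12.96 on all arrays. With CDTX 4 fell and 0 rose in SCI mice, and 3 fell and 2 rose in sham mice, where 22.5% and 25.8% of all probes were called lower. With SCI 5 fell in CDTX muscle and 4 in saline muscle, against 14.9% and 14.6% of all probes called lower, and 0 rose in either. These marker counts are given for quantile normalization only. The part of the marked cells in the actin values was not tested. Mean array intensity was 230 to 277 in Sham+Saline and 320 to 343 on the other arrays used in the tests, and 11114 to 13595 probes were detected per array, which on SCI+CDTX replicate 2 were 373 and 13694.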

How the data were processed

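Bead intensities came from the deposited table without normalization or background subtraction, per the file headers, which also holds a detection p-value and bead numbers per probe and array. The submitters' processing notes name GenomeStudio 2011.1, and the file headers GSGX 1.9.0. The authors' deposited tables of normalized intensity (average scaling, background subtracted, per the file headers) give group means only, and their difference p-value does not say whether it was corrected.

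Intensities of 15 arrays were corrected with neqc (offset 16) in limma 3.58.1 under R 4.3.3, and SCI+CDTX replicate 2 was mapped onto the same distribution. A probe was kept where its detection p was below 0.05 on 3 or more of these arrays. A model of 4 group means (lmFit, contrasts.fit, eBayes) was fitted to all of them, was tested on simulated data, and a call was an adjusted p below 0.05 (Benjamini-Hochberg, within each comparison). Gene symbols were updated through Entrez identifiers for 23681 probes. Each list gene is its brightest kept probe; named were all member probes, the 3 most similar genes of each, the 5 genes of largest spread, and list genes with the 3 highest or lowest changes, besides examples chosen after their values were seen. Members and lists were chosen with earlier results of these data known. Columns left unused: 0. No 2 arrays were identical (highest correlation 0.994).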

Additional observations from a re-analysis of the deposited data

Results flagged for a closer look

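By Dixon's criterion, used as a description, 3 of 44 sets of 4 arrays held an array far from the rest. Chance meets this criterion in about 1 in 20 sets. All 3 were sets of Actb probes, which were chosen on these data, and 2 of them belong to the overlapping pair. The count therefore supports nothing further. SCI+CDTX replicate 2 stood at 4.47 for Actb ILMN_2588055 and at 4.52 for ILMN_2846865, below the other arrays of its group, which started at 7.63 and 7.66. Sham+CDTX replicate 2 stood at 9.61 for Actb ILMN_2617433, below 10.19 to 10.3 on the others.

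The CDTX difference differed between SCI and sham mice, by the limma interaction test, for Acta2 ILMN_2693895 (1.4), Acta2 ILMN_2923445 (0.68) and Actg2 ILMN_2839313 (1.33). With all 16 arrays 1 of these 3 calls held, and with the probe-difference score 0 did. For ILMN_2923445 the value was 0.2 under median scaling, and its call was lost in 8 of 15 fits that left out 1 array. Surgery and chip cannot be told apart in this design, but each CDTX difference was taken within a chip.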

How the results depend on the processing

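The Actb probe spread moved by no more than its error under the alternatives run, with these exceptions. All 16 arrays gave 3.52 for CDTX in SCI mice, 3.29 for SCI in CDTX muscle and 4.29 for the interaction. No background correction gave 5.31 for CDTX in sham mice, 2.24 for SCI in CDTX muscle and 3.09 for the interaction, and an offset of 50 gave 6.3, 2.92 and 3.85. The probe-difference score as a covariate gave 3.19, 0.34 and 0.93. Leaving out each array in turn gave 2.34 to 3 for CDTX in SCI mice, 7.59 to 7.96 for CDTX in sham mice, 3.94 to 4.53 for SCI in CDTX muscle, 0.79 to 1.25 for SCI in saline muscle and 4.81 to 5.53 for the interaction.

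Calls among the 6 other actin probes were less steady. For CDTX in SCI mice (2 calls) the count was 0 with all 16 arrays and by the p of the authors' deposited table, 5 under median scaling, and 1 without background correction, with an offset of 50, without the detection filter or with the score. For CDTX in sham mice (2) it was 1 with array weights, with each chip normalized separately or without the filter, and 0 with the score. For SCI in CDTX muscle (0) it was 1 with each chip normalized separately. For SCI in saline muscle (5) it was 2 with array weights or without the filter, 1 under median scaling, and 3 with each chip normalized separately or with only both groups compared. For the interaction (3) it was 1 with all 16 arrays and 0 with the score. Leaving out an array gave 1 to 2, 1 to 2, 0 to 1, 2 to 5 and 1 to 3 calls in these comparisons. The count dropped to 1 for CDTX in SCI mice without SCI+CDTX 3 or 4 or SCI+Saline 1, 2 or 3, and to 1 for CDTX in sham mice without SCI+CDTX 4, Sham+CDTX 2 or 3, or Sham+Saline 1, 3 or 4. It rose to 1 for SCI in CDTX muscle without SCI+CDTX 1, dropped to 2 or 3 for SCI in saline muscle without SCI+Saline 1, 3 or 4 or Sham+Saline 1, 2 or 3, and to 1 for the interaction without SCI+CDTX 3, Sham+CDTX 2 or 3, or Sham+Saline 4. The 4 reversals were of Acta2 for CDTX in sham mice: 0.48, 0.51 and 0.26 under median scaling and 0.64 with the score. The cause was not tested. Of the other values of these probes under the alternatives, 754 stayed on the same side of the threshold, 82 lost a call, 6 gained one and 18 moved, and 26 uncalled values changed sign.

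Replicate numbers gave no sign of pairing. Same-numbered arrays had correlations of -0.27 to 0.38 (3 of 21 above 0.1), and other-numbered arrays -0.28 to 0.32 (12 of 63 above 0.1). With the replicate number as a block, 1 probe was called for CDTX in SCI mice and 1 for CDTX in sham mice, and the Actb spreads were 2.62 and 7.8. The block left 0, 5 and 2 calls in the other comparisons. The number of arrays, 3 or 4 per group, limits the precision, and Actg2 lies near background.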

Other observations

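Actin-related proteins, which share the actin fold and serve in dynactin, Arp2/3 and chromatin remodellers, were called in both directions. Of 11 genes with a kept probe (18 listed, Actc1 among them), 2 rose and 6 fell with CDTX in SCI mice, 2 rose and 1 fell in sham mice, 1 rose and 1 fell with SCI in CDTX muscle, and 7 rose and 1 fell with SCI in saline muscle. Over all probes 20.4% were called higher and 22.5% lower in the first of these comparisons, 23.1% and 25.8% in the second, 14.9% and 14.9% in the third, and 14.8% and 14.6% in the last. Actr3, the Arp3 subunit of Arp2/3, rose with CDTX by 1.3 ± 0.15 in SCI and by 2.22 ± 0.14 in sham mice (limma adjusted p = 4.65e-06 and 2.65e-09). Actr1a, the main filament subunit of dynactin, rose with CDTX in SCI mice (0.62 ± 0.16) and fell in sham mice (-1.23 ± 0.15), and its interaction was 1.85 ± 0.22 (limma adjusted p = 1.65e-05).

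Markers of other cells moved with CDTX as well, in both directions. All 6 fibroblast markers rose in sham mice and 4 of 6 in SCI mice, with medians of 1.03 and 1.09. Of 4 neutrophil markers with a kept probe 2 rose under each surgery. All 3 kept lymphocyte markers rose in SCI mice, with a median of 1.08, and their median in sham mice was 0.08. Of 6 endothelial markers 4 fell and 0 rose in sham mice (median -0.53), and 2 rose and 0 fell in SCI mice. Of 7 smooth muscle and pericyte markers 4 fell and 1 rose in sham mice, and 2 rose and 2 fell in SCI mice. Under median scaling Tek, Myh11 and Abcc9, called lower in sham mice, changed sign. Of all probes, 23.1% were called higher and 25.8% lower with CDTX in sham mice, and 20.4% and 22.5% in SCI mice.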
